A study of Mus musculus with 4 samples.

Results

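Ion and fluid transport in the alveolus was described here by 9 genes, read from the RNA-seq gene counts of sorted alveolar type II (AT2) cells by their symbols. All 9 were among the 40092 genes of the count table, and all 9 had enough reads to be among the 16661 genes tested. AT2 cells make surfactant and act as stem cells of the alveolar wall. The question was how these genes differed after bleomycin injury between cells with and without Alkbh5, an RNA demethylase that removes m6A marks.

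There were 2 Ctrl libraries (Alkbh5flox/+) and 2 A5-CKO libraries (Alkbh5flox/flox), named here Ctrl 1, Ctrl 2, A5-CKO 1 and A5-CKO 2. Both genotypes also carried Sftpc-CreERT2, a recombinase that tamoxifen switches on in cells using the surfactant promoter Sftpc, and Rosa26-mTmG, a reporter that turns recombined cells green. Since Ctrl mice held 1 floxed allele, they could lose 1 copy of Alkbh5 in the same cells. All mice received tamoxifen and then bleomycin, and green cells were sorted from the lung on day 14. A green cell can be an AT2 cell or a descendant of one. Ages were not given in the sources used here. The labels do not say whether each library came from its own mouse, so p-values measure the spread between these libraries.

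The alveolar surface is kept nearly dry by salt transport. Sodium enters AT2 cells and their neighbours from the air side through the epithelial sodium channel ENaC, the Na,K-ATPase pumps it out on the tissue side, and water follows. Chloride moves through channels and carriers such as Cftr, and the same machinery can be turned towards secretion. The ubiquitin ligase Nedd4l removes ENaC from the membrane, and the kinase Sgk1, which glucocorticoids induce, holds Nedd4l back.

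Promoter sequences from RefSeq (GRCm38.p6), covering 250 bases before and 50 bases after an annotated start, matched 6 of the 9 genes through 11 start sites. No entry was matched for Scnn1a, Slc12a2 and Nedd4l. The 4 promoters below belong to genes that shared a split of the libraries: Sgk1 and Scnn1g were high where Slc26a9 and Cftr were low. They were chosen after their values were seen. The Sgk1 promoter shown lies at chr10:21993640-21993939 on the plus strand and is the fifth of its 6 annotated starts. Its capitals mark a full glucocorticoid response element, AGAACA and TGTTCT with 3 unspecified bases between them, whose leftmost base is at position -189 from the start. The other Sgk1 starts had no match to this full element, and gene counts do not show which start was used.
Sgk1: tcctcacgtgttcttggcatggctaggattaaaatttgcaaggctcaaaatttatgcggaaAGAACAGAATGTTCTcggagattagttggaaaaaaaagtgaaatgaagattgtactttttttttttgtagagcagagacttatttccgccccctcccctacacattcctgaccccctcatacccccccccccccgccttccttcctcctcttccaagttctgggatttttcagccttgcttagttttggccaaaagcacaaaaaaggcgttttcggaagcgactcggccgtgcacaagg
In the promoters of Scnn1g (chr7:121734229-121734528), Slc26a9 (chr1:131743772-131744071) and Cftr (chr6:18170437-18170736), all on the plus strand, capitals mark GC boxes, whose letters are GGGCGG, and the CCAAT box, read on either strand, as well as a motif of the core promoter with the letters TATAAA, called the TATA box below.
Scnn1g: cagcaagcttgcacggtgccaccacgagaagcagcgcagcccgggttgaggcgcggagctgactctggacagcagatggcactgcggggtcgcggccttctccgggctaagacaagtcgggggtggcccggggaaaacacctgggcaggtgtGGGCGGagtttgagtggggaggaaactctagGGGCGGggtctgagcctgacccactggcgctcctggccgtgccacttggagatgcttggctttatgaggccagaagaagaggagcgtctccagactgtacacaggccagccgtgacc
Slc26a9: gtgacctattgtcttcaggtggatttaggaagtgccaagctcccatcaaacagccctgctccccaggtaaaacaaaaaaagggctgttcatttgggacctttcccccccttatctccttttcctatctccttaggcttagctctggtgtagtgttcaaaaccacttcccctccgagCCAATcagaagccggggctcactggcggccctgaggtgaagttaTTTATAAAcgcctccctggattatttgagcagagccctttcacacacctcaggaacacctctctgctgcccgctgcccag
Cftr: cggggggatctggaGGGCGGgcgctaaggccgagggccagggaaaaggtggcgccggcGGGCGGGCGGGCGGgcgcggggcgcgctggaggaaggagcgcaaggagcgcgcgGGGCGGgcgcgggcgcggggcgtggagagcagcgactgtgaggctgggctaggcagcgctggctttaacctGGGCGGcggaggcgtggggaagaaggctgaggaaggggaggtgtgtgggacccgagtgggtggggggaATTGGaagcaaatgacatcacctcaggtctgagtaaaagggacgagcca
Of all 32851 promoters of this length, 3 held the full glucocorticoid element, or 0.00913%, while its half-site AGAACA, which is part of it, stood in 19%. GC boxes were found in 35.7%, CCAAT boxes in 37.4% and TATA boxes in 13.6% of promoters. Of the 4 printed here, Slc26a9 held a TATA box, read on both strands with overlapping letters, and had no GC box in this window. Cftr held 6 GC boxes, of which 3 overlap. The other 4 motifs, among them the cAMP response element TGACGTCA, were searched and had no match in these 4 windows, apart from an E-box CACGTG in that of Sgk1, which overlaps a half-site there. A match is a description of letters only.

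The targeted gene was examined first. Alkbh5 stood at 81.7 and 152 normalized counts, scaled to library size (CPM), in Ctrl, compared with 19.3 and 36.6 CPM in A5-CKO. The A5-CKO values were the 2 lowest. This came to a log2 fold change of -2.06 (standard error, SE, 0.46), with an adjusted p of 0.528 in the quasi-likelihood test of edgeR (Benjamini-Hochberg adjustment) and of 0.0224 in DESeq2 with its default filter.

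The libraries held 18144865 to 20811757 counts, and 0 of the 16661 genes passed an adjusted p of 0.05 in edgeR, while 1530 had an unadjusted p under 0.05 and DESeq2 with default filtering called 59. The sorted cells carried the AT2 markers at a high level in all libraries, with 57452 and 72806 summed normalized counts over 8 markers in Ctrl and 41197 and 33306 in A5-CKO. Ctrl 1 and A5-CKO 2 stood apart in markers of other cells. The 6 macrophage markers summed to 2464 in Ctrl 1 and 1761 in A5-CKO 2, with the others at 427 in Ctrl 2 and 217 in A5-CKO 1. The 6 fibroblast markers summed to 393 and 1014 in that first pair, against 145 and 93.2. The 6 markers of lymphocytes, plasma cells and neutrophils gave 821 and 921 against 288 and 315. Jchain alone set this split, at 622 and 634 CPM against 69.6 and 136, and the other markers of that list did not follow it. The 6 transitional markers, led by Krt8, gave 2845 and 2961 against 1160 and 1516. Other lists separated the genotypes. The 8 AT1 markers summed to 526 and 312 CPM in Ctrl, compared with 803 and 662 CPM in A5-CKO. Of the 6 tested, 4 were higher in each A5-CKO library than in either Ctrl library, as were 20.3% of all genes. Among the 6, 0 had an unadjusted p under 0.05 in edgeR, and Igfbp2 had a log2 fold change of -0.64. The AT1 markers Ager and Pdpn had too few reads to be tested, with at most 6 and 17 counts in a library. The club markers summed to 2953 and 2777 CPM in Ctrl, compared with 2022 and 1461 CPM in A5-CKO, and the ciliated markers to 165 and 155, compared with 147 and 54.9. The endothelial markers overlapped, at 87.3 to 200 CPM. Of the 3 ionocyte markers, Foxi1 had 0 counts in every library and the sum of the list stayed at 1.24 or less. The Y-linked genes Ddx3y, Kdm5d and Uty had 0 counts in every library and Eif2s3y had at most 2, while Xist stood at 149 and 123 CPM in Ctrl, compared with 805 and 390 CPM in A5-CKO.

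No difference between the genotypes passed the test for any of the 9 transport genes. In edgeR's quasi-likelihood test 0 of 9 had an adjusted p under 0.05, where the background was 0% of all genes, and 0 of 9 had an unadjusted p under 0.05, where the background was 9.18%. With shares this low over all genes, a count of 0 among 9 is no result about these genes. DESeq2 also called 0 of 9 at either threshold. The log2 fold changes ran from -0.62 (Scnn1a) to 0.89 (Sgk1), with 3 above and 6 below zero, and their median was -0.14, against -0.02 for all genes tested. With total counts in place of TMM scaling, 5 were above and 4 below zero, and the median was 0.19, against 0.30 for all genes. The libraries of the genotypes overlapped for 8 of the 9, against 56.2% of all genes, and Scnn1a was the exception, with none of the 9 higher in each A5-CKO library than in either Ctrl library, against 20.3% of all genes. The typical gap between the 2 libraries of a genotype, taken on the log2(CPM + 2) scale and averaged over both genotypes, had a median of 0.71 over the 9 genes and of 0.37 over all genes tested. For Scnn1a this gap was 0.71, and the gap between the genotypes was 0.78, while for the other 8 the gap within exceeded that between. Counting error was small beside these gaps, since the lowest count of any of the 9 in a library was 370, with a counting error of 5.2%.

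**Figure D1:**
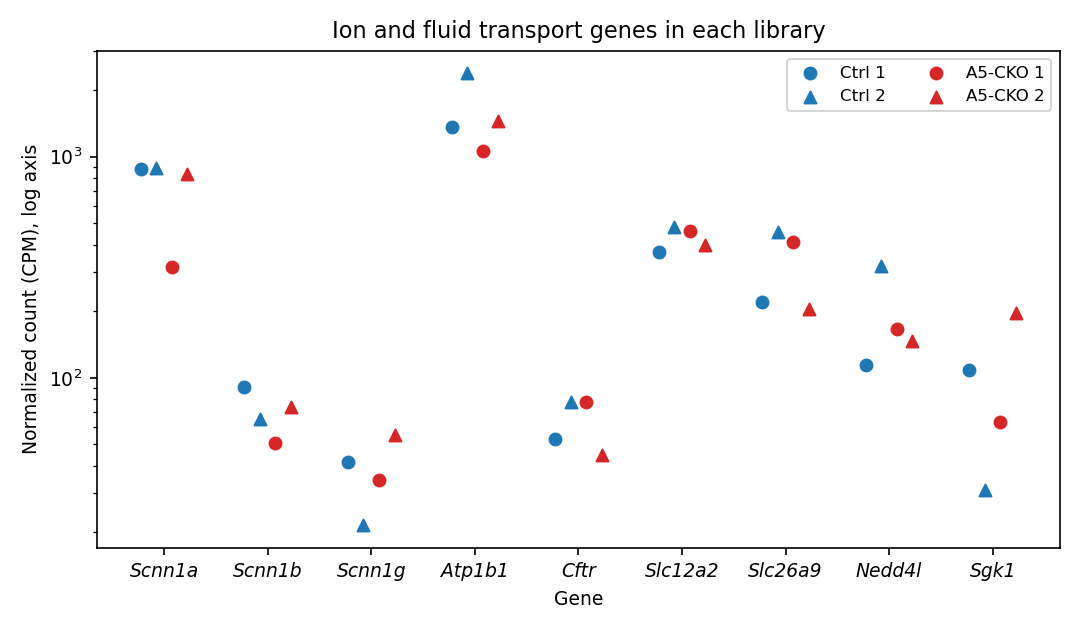
Normalized counts (CPM, log axis) of the 9 transport genes in each library, with Ctrl in blue, A5-CKO in red, circles for replicate 1 and triangles for replicate 2. Atp1b1 and Scnn1a had the highest counts, and the colours overlap for every gene but Scnn1a, whose A5-CKO points, 316 and 833, both lie below the Ctrl points.

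Levels were compared between genes as CPM per kilobase of the longest GENCODE transcript. Atp1b1 was highest at 606 ± 221 (SD, n = 4 libraries), and it exceeded Scnn1a in every library. Its level was at or above that of 99.5% of the 15237 tested genes with a GENCODE transcript. Scnn1a followed at 208 ± 79.0 and exceeded Slc26a9 in 4 of 4 libraries, although their ranges met. Slc26a9 at 68.0 ± 27.3 and Slc12a2 at 65.7 ± 8.03 could not be ordered, each being higher in 2 libraries. Next came Sgk1 at 32.1 ± 23.1, Scnn1b at 27.0 ± 6.52 and Nedd4l at 24.0 ± 11.8, whose ranges overlapped. Scnn1g at 12.8 ± 4.72 and Cftr at 9.88 ± 2.66 were the lowest and were also not separable. Even Cftr stood at the 59.6th percentile of the tested genes with a GENCODE transcript.

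The 3 ENaC subunits are encoded by Scnn1a on chromosome 6 (125314271 to 125344943, GRCm38.p6) and by the neighbours Scnn1g (121734420 to 121768482) and Scnn1b (121865038 to 121918728) on chromosome 7. Scnn1a, the pore subunit on which channel assembly depends most, stood at 876 and 892 CPM in Ctrl, compared with 316 CPM in A5-CKO 1 and 833 CPM in A5-CKO 2. A5-CKO 1 was low, while A5-CKO 2 lay just under both Ctrl libraries. Complete separation in this direction was seen for 23.5% of all genes. Its log2 fold change was -0.62 (SE 0.50, 95% interval -1.80 to 0.56, adjusted p = 0.666 in edgeR). It was -0.10 without A5-CKO 1 and -1.51 without A5-CKO 2.

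Scnn1b, the beta subunit, stood at 90.9 and 64.9 CPM in Ctrl, compared with 50.5 and 73.7 CPM in A5-CKO, with overlapping groups. Between genotypes the log2 fold change was -0.33 (SE 0.34, 95% interval -1.12 to 0.47). Scnn1g, the gamma subunit, stood at 41.8 and 21.5 CPM in Ctrl, compared with 34.4 and 55.3 CPM in A5-CKO, so that Ctrl 1 lay above A5-CKO 1 and Ctrl 2 below all others. For this subunit the log2 fold change was 0.50 (SE 0.43, 95% interval -0.52 to 1.53). Without Ctrl 1 it was 1.12, and without Ctrl 2 it was 0.065.

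The proportions of the subunits also varied. Per kilobase, Scnn1a transcripts exceeded those of Scnn1g by 17.9 and 35.4 times in Ctrl 1 and Ctrl 2, and by 7.86 and 12.9 times in A5-CKO 1 and A5-CKO 2. The ratio of Scnn1b to Scnn1g was 2.51 and 3.48 in Ctrl, compared with 1.69 and 1.54 in A5-CKO. Both ratios were lower in both A5-CKO libraries, with a two-sided exact permutation p of 0.333 each, the smallest that 2 against 2 libraries can give. The ratio of Scnn1a to Scnn1b, 7.14 and 10.2 in Ctrl, compared with 4.64 and 8.38 in A5-CKO, overlapped between the genotypes (exact permutation p = 0.667). These 3 ratios are not independent, since each shares a gene with the others.

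Atp1b1, the beta subunit that carries the sodium pump to the membrane, lies on chromosome 1 (164437099 to 164458355). It stood at 1363 and 2382 CPM in Ctrl, compared with 1057 and 1454 CPM in A5-CKO. A5-CKO 1 was lowest and Ctrl 2 highest, and Ctrl 1 lay between the A5-CKO libraries. Its log2 fold change was -0.58 (SE 0.43, 95% interval -1.60 to 0.45, adjusted p = 0.648 in edgeR), and it was -0.16 without Ctrl 2. Nme7 shares part of the Atp1b1 locus, and reads there are uncertain where the strand was not used in counting.

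**Figure D2:**
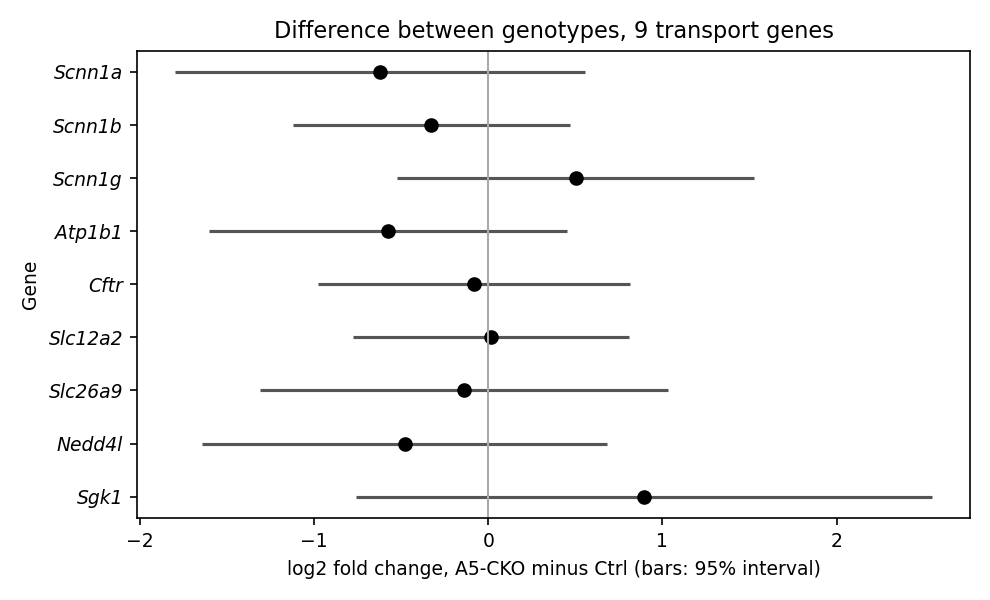
Log2 fold change of each of the 9 genes between A5-CKO and Ctrl from edgeR (dots), with 95% intervals (bars). Every interval includes 0, and the widest is that of Sgk1, from -0.76 to 2.55.

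The chloride transporters were Cftr, Slc12a2 and Slc26a9. Cftr, the cAMP-regulated chloride channel mutated in cystic fibrosis, lies on chromosome 6 (18170687 to 18322770). It stood at 52.7 and 77.6 CPM in Ctrl, compared with 78.1 and 44.8 CPM in A5-CKO. The highest and the lowest library were both A5-CKO. The difference on the log2 scale was -0.08 (SE 0.38, 95% interval -0.98 to 0.81). Slc26a9, a chloride channel of airway and gastric epithelium on chromosome 1 (131744022 to 131771504), stood at 219 and 457 CPM in Ctrl, compared with 409 and 204 CPM in A5-CKO. The libraries of each genotype thus differed by 2.08 and 2.01 times, replicate 2 being the higher in Ctrl and the lower in A5-CKO, and the log2 fold change was -0.14 (SE 0.49, 95% interval -1.31 to 1.03).

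Slc12a2, the sodium-potassium-chloride cotransporter that loads epithelial cells with chloride, was the steadiest of the 9. It stood at 369 and 482 CPM in Ctrl, compared with 461 and 401 CPM in A5-CKO, and the highest library exceeded the lowest by 1.31 times. Ctrl averaged 426 ± 79.9 CPM (SD, n = 2), and A5-CKO averaged 431 ± 42.6 CPM (SD, n = 2). Its log2 fold change was 0.02 (SE 0.33), and the 95% interval from -0.77 to 0.81 leaves room for a difference in either direction. With total counts only, the log2 fold changes of Cftr and Slc26a9 were 0.24 and 0.19. The 3 genes with the longest transcripts, Cftr (6410 bases), Slc12a2 (6520) and Nedd4l (7787), had lower log2 fold changes when GC content and transcript length were corrected for, at -0.69, -0.44 and -0.86, none with an adjusted p under 0.05 in edgeR.

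The regulators of ENaC turnover, Nedd4l and Sgk1, had the widest gaps within a genotype, 2.80-fold and 3.47-fold between the Ctrl libraries. Nedd4l, the ubiquitin ligase, stood at 115 and 321 CPM in Ctrl, compared with 166 and 146 CPM in A5-CKO. Both A5-CKO libraries lay between the Ctrl libraries. The difference on the log2 scale was -0.48 (SE 0.49, 95% interval -1.64 to 0.68), and it turned from -0.98 without Ctrl 1 to 0.40 without Ctrl 2. The genes Gm41756 and Gm52339 overlap its locus, with at most 142 counts in a library.

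Sgk1, the kinase that phosphorylates Nedd4l, lies on chromosome 10 (21882184 to 21999903). It stood at 108 CPM in Ctrl 1, 31.1 CPM in Ctrl 2, 63.1 CPM in A5-CKO 1 and 196 CPM in A5-CKO 2. Ctrl 1 lay above A5-CKO 1, and the range over the 4 libraries was 6.28-fold, the widest of the 9. Its log2 fold change was 0.89 (SE 0.70, 95% interval -0.76 to 2.55, adjusted p = 0.657 in edgeR). It was 2.13 without Ctrl 1 and -0.17 without A5-CKO 2. The other transport genes most like Sgk1 were the potassium channel Kcnn4, at a root mean square difference of 0.50 between centred log2 levels over the 4 libraries, and the pump regulator Fxyd5, at 0.52, among the 57 tested. The glucocorticoid receptor gene Nr3c1 stood at 74.5 and 86.1 CPM in Ctrl, compared with 127 and 92.3 CPM in A5-CKO. Tsc22d3, a gene that glucocorticoids also induce, had 147 and 153 against 116 and 145.

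Some of the 9 genes shared a split of the libraries. Ctrl 1 and A5-CKO 2, the libraries with more macrophage, fibroblast and transitional markers, were the 2 highest for Sgk1, Scnn1g and Scnn1b, and the 2 lowest for Slc26a9, Cftr, Slc12a2 and Nedd4l. Scnn1a and Atp1b1 did not follow it. This split was not particular to the 9 genes. Over all genes tested, the gap between replicates 1 and 2 in Ctrl had a correlation of -0.37 with that in A5-CKO. The share of all genes with the split was not counted, so its presence among the 9 is no result about them. The part of those other cells and of transitional cells in these levels was not tested. Foxi1, the defining factor of ionocytes, a rare airway cell rich in Cftr, was at 0 in every library. In bulk RNA, fewer cells of a type and less RNA per cell cannot be told apart.

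**Figure D3:**
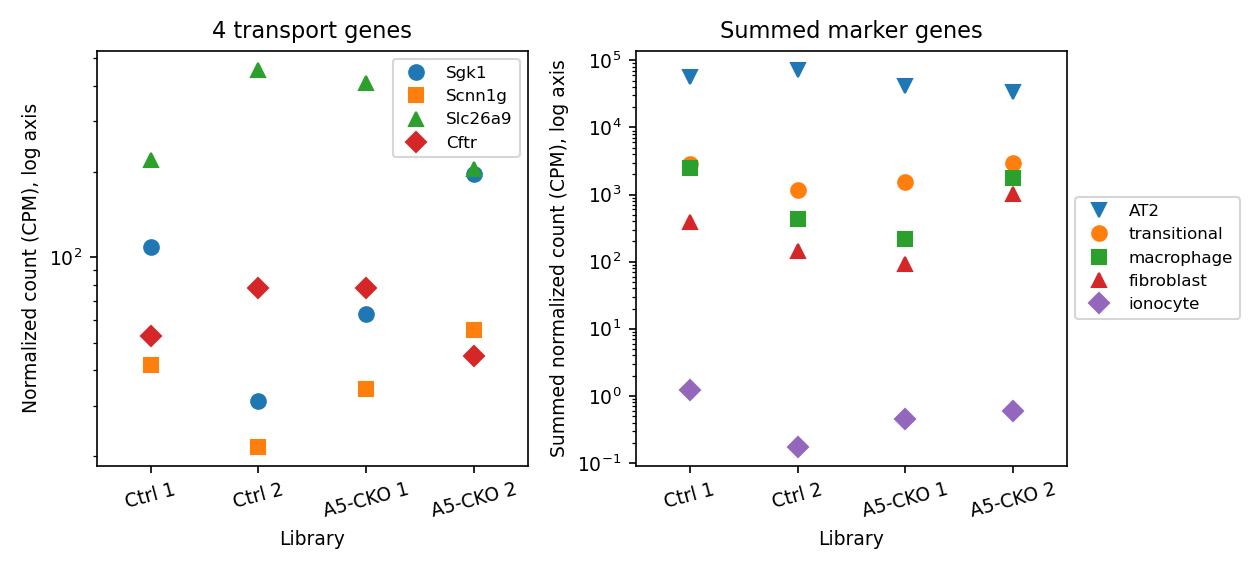
Left, normalized counts (CPM, log axis) of Sgk1, Scnn1g, Slc26a9 and Cftr in each library, the 4 genes being chosen after their values were seen. Right, summed CPM (log axis) of the AT2, transitional, macrophage, fibroblast and ionocyte markers, where macrophage markers stood at 2464 in Ctrl 1 and 1761 in A5-CKO 2 against 427 and 217 in the others.

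A list of 58 other transport genes gave the setting, and 57 of them had enough reads to be tested. In edgeR, 0 of the 57 reached an adjusted p of 0.05. At an unadjusted p under 0.05 there were 4, of which 1 was higher in A5-CKO, against 4.48% of all genes, and 3 were lower, against 4.71%. DESeq2 with default filtering gave 7 at an unadjusted p under 0.05, against 1827 of the 27072 genes it fitted. It called 1, Prss8, against 59 of all genes. The median log2 fold change of the 57 was -0.15, with 20 above and 37 below zero, and total counts alone gave 0.19, with 37 above and 20 below.

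ENaC is opened in part by proteases that cut its extracellular loops, and this group held 2 of the 3 lower genes. Prss8 (prostasin), a membrane-anchored channel-activating protease, stood at 348 and 391 CPM in Ctrl, compared with 138 and 141 CPM in A5-CKO. The gap between genotypes was far larger than that within either. Its log2 fold change was -1.41 (SE 0.31), with an adjusted p of 0.528 in edgeR and of 0.0335 by DESeq2 under its default filter, and over the alternatives it stayed between -1.46 and -1.09. Kat8, which overlaps the Prss8 locus, had a log2 fold change of -0.38. Tmprss4, a serine protease of epithelial membranes, stood at 221 and 255 CPM in Ctrl, compared with 125 and 139 CPM in A5-CKO, for a log2 difference of -0.85 (SE 0.30, adjusted p = 0.528 in edgeR).

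The other members of the protease group are Furin, which cuts ENaC in the Golgi, St14 (matriptase), which acts upstream of Prss8, and the inhibitors Spint1 and Spint2. Spint2 stood at 749 and 744 CPM in Ctrl, compared with 470 and 407 CPM in A5-CKO, with an unadjusted p of 0.053 in edgeR, and it was under 0.05 in 5 of 10 alternatives fitted to the 4 libraries. All 6 genes of the group had log2 fold changes below zero, 5 of 6 with total counts only, and 4 were lower in each A5-CKO library than in either Ctrl library, a separation seen for 23.5% of all genes. The AT2 markers pointed the same way, with 5 of 8 lower in both A5-CKO libraries, a median log2 fold change of -0.84 and 1 at an unadjusted p under 0.05. The ciliated markers were lower in this way for 4 of 5 (median -1.03, with 2 at an unadjusted p under 0.05) and the club markers for 2 of 5 (median -0.64, with 1). The part of these lists in the protease values was not tested.

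Slc4a2, the chloride-bicarbonate exchanger of the tissue side, stood at 194 and 233 CPM in Ctrl, compared with 117 and 136 CPM in A5-CKO. Its log2 fold change was -0.75 (SE 0.30, adjusted p = 0.528 in edgeR). Slc6a14, from the group of phosphate and amino acid uptake, went the other way. It stood at 117 and 72.3 CPM in Ctrl, compared with 169 and 159 CPM in A5-CKO (log2 fold change 0.79, SE 0.34). Its unadjusted p was 0.053 in edgeR, and under 0.05 in 7 of 10 alternatives fitted to the 4 libraries.

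**Figure D4:**
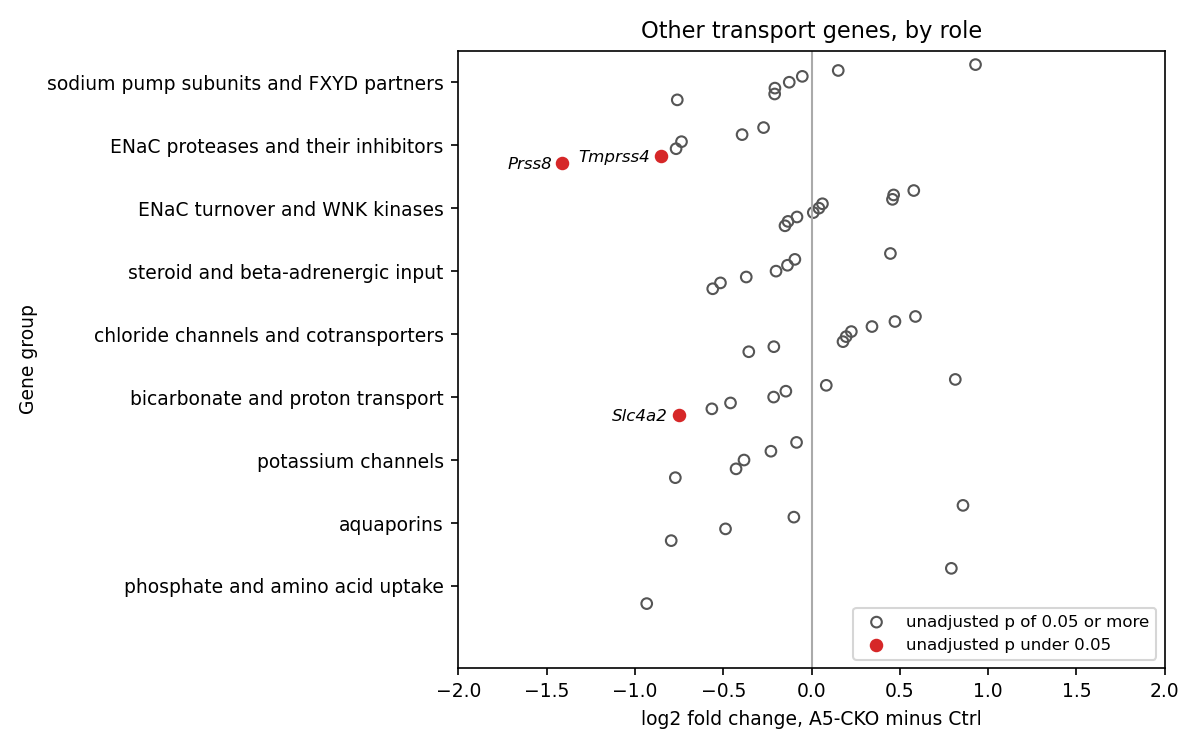
Log2 fold change (A5-CKO minus Ctrl, edgeR) of 55 other transport genes, one circle a gene, by role. Filled red circles are the 3 genes whose unadjusted p was under 0.05, and the 6 genes of the protease group lie between -1.41 and -0.27.

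The largest differences without a small p were in genes of very low or very high level. Atp1b2, a minor pump subunit, stood at 0.710 and 1.16 CPM in Ctrl, compared with 1.27 and 2.31 CPM in A5-CKO (log2 fold change 0.93, SE 0.72). Aqp4, a water channel, stood at 1.06 and 0.756 CPM in Ctrl, compared with 1.86 and 1.45 CPM in A5-CKO (log2 fold change 0.86, SE 0.68). Slc34a2, the sodium-phosphate cotransporter typical of AT2 cells, stood at 8753 and 19065 CPM in Ctrl, compared with 7556 and 7013 CPM in A5-CKO, for a log2 difference of -0.93 (SE 0.52). Ctrl 2 set much of that value, which was -0.31 without it.

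Over all 16661 genes tested, 8183 log2 fold changes were above zero and 8478 below. By role, the genes of ENaC turnover and the WNK kinase pathway had 6 of 9 log2 fold changes above zero, or 9 of 9 with total counts only and 4 of 9 after correction for GC and length. The chloride channels and cotransporters had 6 of 8 above zero, or 7 of 8 and 5 of 8 under the same settings. In both groups 0 genes had an unadjusted p under 0.05 in edgeR. The potassium channels had 5 of 5 below zero, or 3 of 5 with total counts only and 5 of 5 after correction for GC and length. For the bicarbonate and proton transporters these were 5 of 7, or 3 of 7 and 6 of 7. The pump subunits had 6 of 8 below zero, or 2 of 8 and 5 of 8 under the same settings. Of the 4 aquaporins, Aqp5, the water channel of alveolar epithelium, had the highest level, with 981 and 951 normalized counts in Ctrl and 479 and 636 in A5-CKO. Its log2 fold change was -0.79 (SE 0.35), with an unadjusted p of 0.058 in edgeR. The paper measured AQP5 as an AT1 marker in human organoids. Aqp5 was not in the AT1 list used here, and that list's summed counts went the other way, higher in A5-CKO.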

How the data were processed

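RNA-seq gene counts of sorted AT2 cells were analysed for 2 Ctrl and 2 A5-CKO libraries, grouped by the genotype in the sample labels. The authors made the deposited counts from paired-end reads trimmed with Trim Galore 0.6.10, cleared of ribosomal RNA, aligned to mm10.p6 with HISAT2 2.2.1, stripped of duplicates with sambamba and counted with featureCounts 2.0.3 against NCBI gene models. Counting is described only for MeRIP-seq and was assumed to hold for RNA-seq too. Whether strand was used in counting is not given in the sources used here, which leaves genes with an overlapping neighbour uncertain. Each column is 1 library.

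From the counts, edgeR 4.0.16 (R 4.3.3) was run with TMM factors, filterByExpr, glmQLFit and glmQLFTest on genotype, with Benjamini-Hochberg adjustment over 16661 genes. CPM was taken from TMM-scaled libraries. Each SE was derived by dividing the log2 fold change by the square root of F, and 95% intervals use the t distribution with the degrees of freedom of that fit. Alternatives were other scaling factors, DESeq2 1.42.0, the tool of the Methods, limma voom (limma 3.58.1), other filters, the replicate block and each library left out. Transcript lengths are from GENCODE M21, and gene positions were taken from RefSeq for GRCm38.p6, the build of the alignment. The fit was also run on simulated data, at the spread of these libraries (common dispersion 0.173) and at a lower one. Calling most of the changed genes was required only at the lower one.

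The 9 genes, the lists of other transport genes and of cell type markers, and the alternatives were chosen with earlier results of these data known. Named are the 9 genes, Alkbh5, the other transport genes with an unadjusted p under 0.05 or among the 3 largest log2 fold changes in each direction, and the 2 genes most like the members of smallest p, of which some are not reported here. Spint2, St14, Furin, Slc6a14, Nr3c1, Tsc22d3, Aqp5, Jchain, Ager, Pdpn, Igfbp2 and overlapping genes were named after their values were seen.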

Additional observations from a re-analysis of the deposited data

How the results depend on the processing

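The 9 genes had 0 calls at an adjusted p under 0.05 in every alternative run. At an unadjusted p under 0.05 there were 0 of the 9 in all alternatives fitted to the 4 libraries without a crossed block, and 0 to 3 when 1 library was left out: Nedd4l, Scnn1g and Sgk1 without Ctrl 1, and Scnn1a without A5-CKO 2. Their median log2 fold change of -0.14 became 0.19 with total counts only and -0.44 after correction for GC and length, an alternative chosen after seeing the data, and ran from -0.28 to 0.17 with 1 library left out. The cause was not tested. Each fit with 1 library left out had only 1 library in one genotype. Its count at an unadjusted p under 0.05, 0 to 3 of the 9, was not set against all genes and is no result about these genes.

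Some single genes changed direction. Cftr went to 0.013 with upper-quartile factors and 0.24 with total counts only, and from -0.55 to 0.23 with 1 library left out. Slc12a2 went to -0.018 without a filter and -0.44 after correction for GC and length, and from -0.11 to 0.18 with 1 library left out. Slc26a9 went to 0.19 with total counts only and from -0.74 to 0.43 with 1 library left out. Nedd4l ran from -0.98 to 0.40 and Sgk1 from -0.17 to 2.13 with 1 library left out. In those fits the lone library was assumed to vary like the other group.

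The 4 other transport genes at an unadjusted p under 0.05 became 8 with total counts only and 8 in DESeq2 run on these 16661 genes. There were 7 under its default filter and 7 in limma voom. Over all genes these settings gave 1877, 1776, 1827 and 1445, where the main fit gave 1530. Prss8 had an unadjusted p under 0.05 in all 10 alternatives with 4 libraries, Tmprss4 in 8 and Slc4a2 in 4. At an adjusted p, DESeq2 called 1, Prss8, in either form. Over all genes DESeq2 called 64 and 59 where edgeR called 0, and Alkbh5 passed there, at a log2 fold change of -2.01 and -2.02. Alkbh5 ran from -2.63 to -1.58 with 1 library left out, and the 1530 genes at an unadjusted p under 0.05 from 746 to 1668.

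The labels do not say whether libraries with the same replicate number were handled together. Same-numbered libraries deviated with a correlation of -0.37 across genes, which cannot settle that. With the replicate block, 754 of all genes, 2 of the other transport genes and 0 of the 9 had an unadjusted p under 0.05. With the numbers crossed, added after seeing the data, these were 2582, 11 and 2, and the adjusted calls were 230, 2 and 0. With 2 libraries a group, the spread between libraries and not the depth, 370 counts or more for each of the 9, limits these comparisons.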
